A study of Mus musculus with 9 samples.

Results

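The lung response to hyphal fragments of Aspergillus fumigatus was compared directly with the response to its conidia, on the 3 libraries of each form out of 9 libraries in the series. All lungs came from C57BL/6 mice described as immunocompetent and were taken 24 hours after material was placed in the trachea. The mice received conidia, hyphal fragments or, as the control, normal saline, and the labels name no other agent or allele for any group. Neither the age of the mice, nor the dose, nor whether each library is a separate animal is stated, so p-values measure the spread between these libraries, which may be technical.

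Conidia are the dormant airborne spores of the mould, whose pigmented protein coat hides the sugars of the cell wall until the spore swells. Hyphae are the growing filaments, which expose beta-glucan, secrete proteases and toxins, and are too large to be engulfed. Resident macrophages and recruited monocytes are among the cells that clear conidia, and neutrophils are the main cells that attack hyphae. Both forms are sensed by C-type lectin and Toll-like receptors on these cells and on the epithelium.

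Values were FPKM, the fragments of a gene scaled to the length of its transcript and to the mapped fragments of its library. A gene was tested where at least 3 of the 6 libraries reached 1 FPKM, which 13301 of 18984 genes did. The log2 difference is that of the means of log2(FPKM + 1), hyphal fragments minus conidia, which understates the change of genes with low values. Genes with an adjusted p below 0.05 in limma were called, with Benjamini-Hochberg adjustment over all genes tested. The gene lists below were chosen with earlier results of these data known. Their counts beside the shares of all tested genes are therefore descriptions. Because whole lung was measured, fewer cells of a type and less RNA per cell cannot be told apart.

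The files gave no counts, and the spacing of the lowest values put the depth at roughly 17500000 to 22500000 fragments per library, so no counting interval is given. Summed FPKM ranged from 492540 to 522168. The conidia libraries had 13081 to 13546 genes at 1 FPKM or more and a median tested gene at 10.9 to 11.7 FPKM. The hyphae libraries had 12451 to 12754 such genes and a median of 8.53 to 9.34 FPKM. Markers of lung were high throughout, with Sftpc, surfactant protein C, at 10141 FPKM or more in each of the 6 libraries. Along the leading principal component, with 72.3% of the variance, the 3 hyphae libraries stood apart from the 3 conidia libraries. Libraries of a group were not alike. Conidia replicate 2 lay closest to saline, with correlations across genes of 0.967 to 0.982 against 0.907 to 0.930 for conidia replicate 1, and hyphae replicate 1 lay closest to the conidia libraries.

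The form of the fungus was accompanied by a difference in a large share of the lung transcriptome. Of the 13301 genes 6683 were called (50.2%), 1549 higher (11.6%) and 5134 lower (38.6%) after hyphal fragments. At least 2-fold differences were called for 406 higher and 1473 lower genes. The median of all tested genes was itself shifted by −0.29. Each library was therefore also divided by a median-of-ratios factor, which places that median at −0.00. After rescaling 6062 genes were called (45.6%), 3027 higher and 3035 lower (22.8% each), with 778 higher and 676 lower by at least 2-fold. A total of 4584 genes were called in the same direction on both scales, 1549 higher and 3035 lower, and none in opposite directions. Leaving out hyphae replicate 2 lowered the count to 4450 as deposited and 3841 rescaled, and leaving out conidia replicate 3 lowered it to 4478 and 3751. Without conidia replicate 2 it was 5486 and without hyphae replicate 1 it was 7236.

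**Figure D1:**
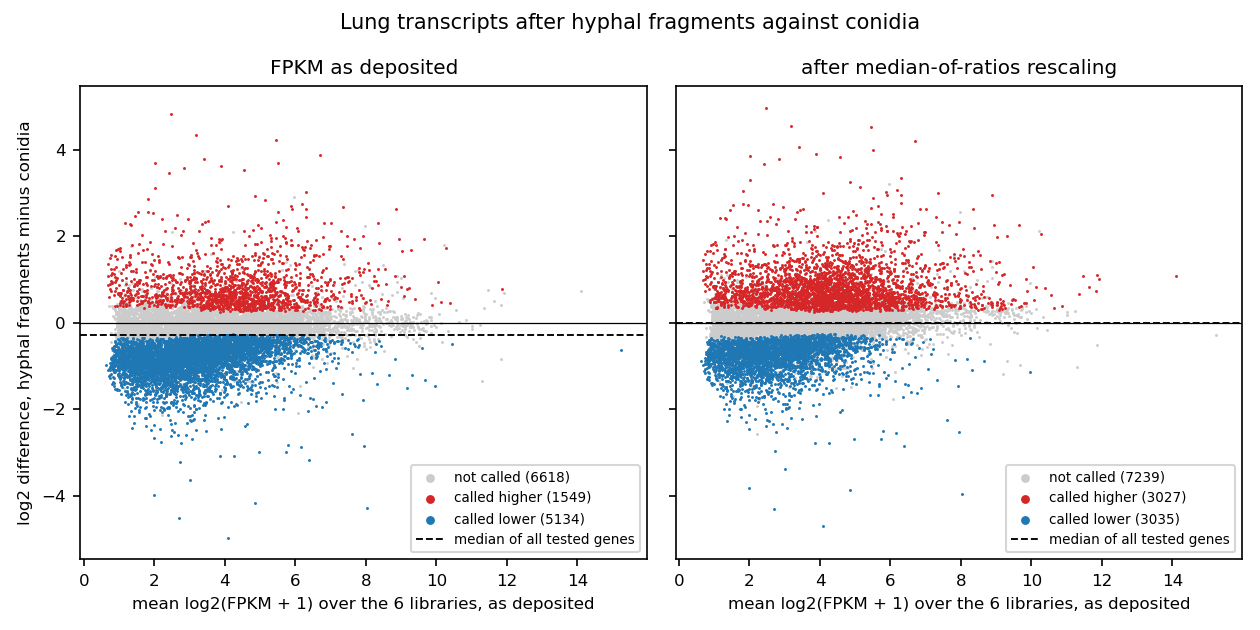
Each point is 1 of 13301 genes, plotted by its mean log2(FPKM + 1) and by its log2 difference between hyphal fragments and conidia, as deposited (left) and rescaled (right). Red points were called higher and blue points lower at an adjusted p under 0.05, and the dashed line marks the median of all tested genes, at −0.29 on the left and −0.00 on the right.

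Of the tested genes, 85 reached 1 FPKM in hyphae libraries only and 374 in conidia libraries only. Such genes had to differ between the groups to be tested, so their differences are a description. Among those named below, Apol8, Egr4, Il17c, Muc13, Necab2 and Ptgds reached it in hyphae libraries only, and Chac1, Cxcr1, Gja5, Il7r, Ms4a4c, Msr1, Nos2, Orm2 and Rbx1-ps in conidia libraries only.

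The groups did not overlap for 8037 genes as deposited (60.4%) and 7672 rescaled (57.7%). Genes called higher on both scales had longer transcripts, with a median of 3726 bases for the longest annotated transcript, against 3276 for those called lower and 3280 for the other tested genes. Their median GC content was 49.9%, against 49.4% and 50.2%. The median conidia level was 14.2 FPKM for genes called higher, 8.68 for genes called lower and 12.5 for the others.

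The lowest log2 difference among the named genes on both scales was that of Sox18 (Entrez 20672), a transcription factor of endothelial cells that directs arterial and lymphatic fate. It stood at 72.9, 91.3 and 124 FPKM after conidia and 1.94, 2.38 and 1.78 after hyphal fragments, with 64.9, 103 and 67.1 in the saline libraries. The conidia and saline libraries overlapped, and all 3 hyphae libraries lay below every other library. The log2 difference was −4.97 (SE 0.20, limma adjusted p = 0.000399), and −4.69 after rescaling. Gja5, the connexin of arterial endothelium, stood at 5.99, 10.3 and 4.87 FPKM after conidia and 0.4, 0.42 and 0.61 after hyphal fragments (−2.39, SE 0.24), beside 11.6, 18 and 13.9 in saline. Here the conidia libraries also lay below the saline libraries, and the hyphae libraries lay lowest. Erg, an ETS factor that maintains endothelial identity, differed by −1.51 and Hey1, a Notch target in arteries, by −1.49. Of 16 endothelial transcription factors and arterial genes tested, 3 were called higher and 9 lower as deposited, and 5 and 6 after rescaling, beside 38.6% and 22.8% of all tested genes called lower. Their median log2 difference was −0.56 as deposited and −0.27 rescaled.

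General endothelial markers gave calls mostly in the other direction. Of 16 tested, 5 were called higher and 1 lower as deposited, and 8 and 0 after rescaling, beside 11.6% and 22.8% of all tested genes called higher, with a median of 0.08 as deposited and 0.40 rescaled. Pecam1, the adhesion molecule CD31, stood at 206, 207 and 199 FPKM after conidia and 246, 269 and 234 after hyphal fragments (0.29, adjusted p = 0.049 in limma), a call lost without any 1 of the 6 libraries (up to 0.166 without hyphae replicate 2). Cldn5, the tight junction protein of endothelium, was higher at 294, 295 and 277 FPKM after hyphal fragments and 170.2, 174 and 214 after conidia (0.64). Flt1, a receptor for VEGF, was higher, with a log2 difference of 1.38 (SE 0.18). The summed FPKM of the 16 markers was 2241 to 2600.3 after conidia and 2426 to 2558 after hyphal fragments. The count called higher was 2 without conidia replicate 3 or hyphae replicate 2.

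In the adrenomedullin system the ligand was higher and the receptor lower after hyphal fragments. Adm, the peptide adrenomedullin, which relaxes vessels and tightens the endothelial barrier, stood at 26.6, 4.24 and 13.3 FPKM after conidia and 86.2, 154 and 329 after hyphal fragments, beside 2.11, 4.82 and 2.35 in saline (3.70, SE 0.70, limma adjusted p = 0.00656). All 3 hyphae libraries lay above all 3 conidia libraries. Calcrl, its receptor, stood at 180.4, 202 and 196 FPKM after conidia and 28.8, 29.2 and 19.9 after hyphal fragments (−2.87, SE 0.16, adjusted p = 0.000484). The hyphae libraries were again apart from both other groups, since saline stood at 107, 160 and 197. Ramp2, the partner that makes Calcrl an adrenomedullin receptor, was lower, with a log2 difference of −0.83 as deposited, and after rescaling its difference of −0.50 did not pass (adjusted p = 0.0512). Of 18 genes of vascular tone and angiogenic signals tested, 3 were called higher and 4 lower as deposited, and 5 and 2 after rescaling. The shares called lower were below those of all tested genes (38.6% and 22.8%). The counts called higher stand beside 11.6% and 22.8% of all tested genes.

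**Figure D2:**
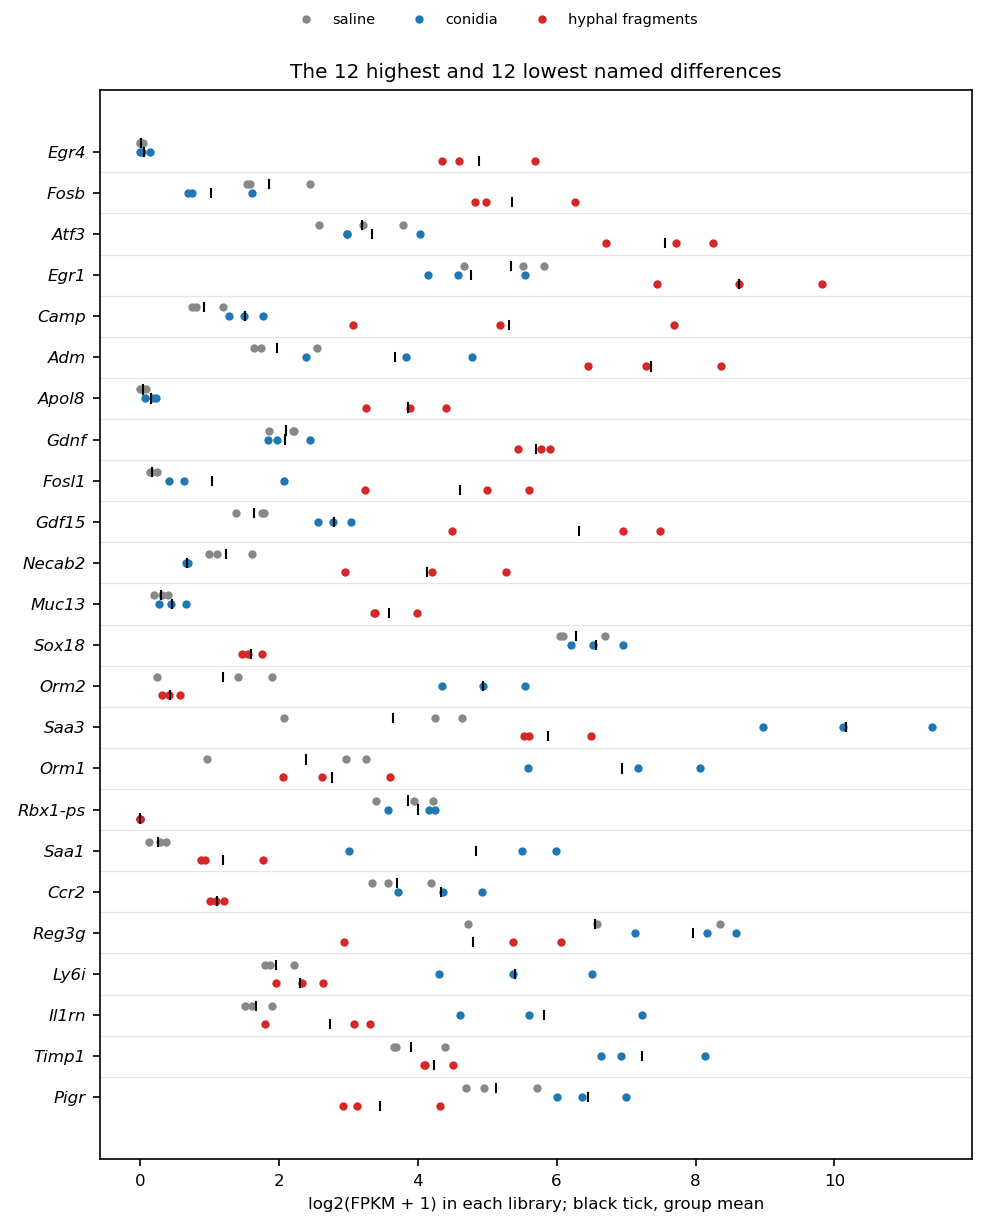
Rows are the 12 highest and 12 lowest log2 differences among genes that were called on both scales and did not overlap, leaving out predicted genes, and the x axis gives log2(FPKM + 1) in each library, with saline in grey, conidia in blue and hyphal fragments in red. In every row the 3 red points lie on one side of the 3 blue points, and for Sox18 and Ccr2 the blue points lie near the grey ones.

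Immediate early transcription factors are induced within minutes of growth factor, stress or cytokine signals and then switch on other genes. Most of those listed were called higher after hyphal fragments. Of 19 tested, 15 were called higher and 0 lower as deposited, and 16 and 0 after rescaling, beside 11.6% and 22.8% of all tested genes called higher. Their median was 1.91 as deposited and 2.23 rescaled. The count called higher ranged from 13 to 17 when each library was left out in turn. Egr4 (Entrez 13656), a zinc finger factor, was at 0.1, 0.02 and 0 FPKM after conidia and 19.4, 23.2 and 50.7 after hyphal fragments (4.83, SE 0.33). In saline it was at 0, 0.03 and 0, so only the hyphae libraries carried more than a trace. Fosb, a component of the AP-1 dimer, stood at 2.06, 0.62 and 0.68 FPKM after conidia and 30.7, 27.3 and 75.8 after hyphal fragments (4.34, SE 0.43). Atf3 (Entrez 11910), an AP-1 and stress factor that damps inflammatory genes, stood at 15.4, 6.91 and 6.91 FPKM after conidia and 103, 209.8 and 304 after hyphal fragments (4.23, SE 0.45), with 12.8, 4.97 and 8.22 in saline. For each of these genes all hyphae libraries lay above all conidia and saline libraries, and for Fosb and Atf3 the conidia and saline libraries overlapped. Egr1, the founding member of the zinc finger family, stood at 45.6, 16.8 and 23 FPKM after conidia, 174, 394 and 903 after hyphal fragments and 55.6, 44.7 and 24.5 in saline (3.87, SE 0.63). Fosl1, another AP-1 partner, differed by 3.57 (SE 0.70).

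Inhibitors that NF-kB and cytokine signals induce against themselves were among the higher genes. Of 20 NF-kB subunits and feedback genes tested, 10 were called higher and 1 lower as deposited, and 11 and 1 after rescaling, beside 11.6% and 22.8% of all tested genes called higher, with a median of 0.92 as deposited and 1.24 rescaled. The count called higher was 5 without conidia replicate 2, conidia replicate 3 or hyphae replicate 2. Zfp36, tristetraprolin, which binds AU-rich messages such as that of Tnf and speeds their decay, stood at 265, 133 and 183 FPKM after conidia and 590, 1333 and 2002 after hyphal fragments, beside 158, 142 and 119.8 in saline (2.64, SE 0.47, limma adjusted p = 0.00513). Conidia and saline libraries overlapped, and all hyphae libraries lay above them. Rel, the subunit c-Rel, stood at 2.58, 1.66 and 1.24 FPKM after conidia and 6.99, 13.1 and 17.4 after hyphal fragments (2.20, SE 0.33). Nfkbia, the inhibitor that holds NF-kB in the cytoplasm, stood at 409, 137 and 272 FPKM after conidia and 649, 848 and 1557 after hyphal fragments (1.93, SE 0.47). It was 102, 79.3 and 112 FPKM in saline, so that conidia lay between the other groups. Tnfaip3, the deubiquitinase A20, differed by 2.21 and Socs3, the inhibitor of STAT3 signalling, by 2.0, but each lost its call in several sets of 5 libraries (adjusted p up to 0.112 without conidia replicate 2 and 0.0669 without conidia replicate 2).

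The dual-specificity phosphatases, which switch off MAP kinases, split by member. Of 11 tested, 4 were called higher and 3 lower as deposited, and 5 and 1 after rescaling, beside 11.6% and 22.8% of all tested genes called higher. Dusp8, which acts on JNK and p38, stood at 7.91, 5.8 and 6.62 FPKM after conidia and 23.8, 30.1 and 30.5 after hyphal fragments (1.91, SE 0.15, limma adjusted p = 0.000593). Dusp10, of the same preference, differed by 0.83. Dusp7, which acts on ERK, was the other way round, at 49, 49.2 and 61.4 FPKM after conidia and 22.6, 16.1 and 12.9 after hyphal fragments (−1.60, SE 0.20). Dusp1, an early-induced phosphatase, differed by 1.23 (adjusted p = 0.0243, up to 0.0817 without conidia replicate 3).

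The start regions of these genes were read from RefSeq promoter windows of build GRCm38.p6, using the 250 bases before each annotated start, on both strands. The CArG box, the site of serum response factor, was in 1.47% of all 32851 windows. In the immediate early list 14 of 19 genes had a window, and 4 of their 20 windows held a CArG box, all 4 of them at Egr2, which was not called. In the feedback list 17 of 20 genes had a window, and 1 window held the box, that of Zfp36. The NF-kB motif was taken as GGGRNNYYCC or the looser, longer GGGRNNNYYCC, where R is A or G, Y is C or T and N is any base. It was in 11.3% of all windows, in 7 of the 20 windows of the immediate early list, in 10 of the 22 windows of the feedback list and in 6 of the 17 windows of the acute phase list. The AP-1 site TGANTCA, in 6.75% of all windows, was in 0 of the 20 windows of the immediate early list, and TGACGTCA, the site of CREB and ATF factors, in 1.55% of all windows, was in 1, that of Maff. The windows of Zfp36 (chr7:28379229-28379478), Saa3 (chr7:46715677-46715926) and Saa1 (chr7:46742981-46743230), all on the minus strand, are shown 5′ to 3′ because Zfp36 was among the higher and the serum amyloid genes among the lower differences; capitals mark the CArG box in the Zfp36 window and the NF-kB motif in the others.
Zfp36: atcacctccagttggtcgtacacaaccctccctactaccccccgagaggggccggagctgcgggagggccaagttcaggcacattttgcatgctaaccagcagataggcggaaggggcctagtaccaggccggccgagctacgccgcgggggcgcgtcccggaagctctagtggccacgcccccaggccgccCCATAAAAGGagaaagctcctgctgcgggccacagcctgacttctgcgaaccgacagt
Saa3: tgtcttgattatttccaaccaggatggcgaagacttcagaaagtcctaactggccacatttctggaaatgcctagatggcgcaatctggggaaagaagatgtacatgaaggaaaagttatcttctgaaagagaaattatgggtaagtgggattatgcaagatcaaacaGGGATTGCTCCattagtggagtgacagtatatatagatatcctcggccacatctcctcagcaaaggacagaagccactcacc
Saa1: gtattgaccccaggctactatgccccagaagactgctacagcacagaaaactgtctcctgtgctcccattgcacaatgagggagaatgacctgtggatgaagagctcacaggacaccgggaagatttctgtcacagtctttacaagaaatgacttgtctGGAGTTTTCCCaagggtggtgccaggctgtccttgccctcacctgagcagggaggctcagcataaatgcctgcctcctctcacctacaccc
The CArG match lay 58 to 49 bases before the start of Zfp36, and the NF-kB matches lay 82 to 72 bases before Saa3 and 91 to 81 bases before Saa1. Both NF-kB matches were of the longer form only. A match of letters is a description and was not linked to binding or to the measured levels.

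Acute phase and antimicrobial proteins formed the opposite group. Of 20 tested, 1 was called higher and 11 lower as deposited, and 2 and 8 after rescaling, beside 38.6% and 22.8% of all tested genes called lower, with a median of −1.29 as deposited and −0.96 rescaled. The count called lower was 6 without conidia replicate 3. Saa3 (Entrez 20210), a serum amyloid made locally in inflamed tissue, stood at 2722, 503 and 1109.6 FPKM after conidia and 47.6, 45.1 and 89.2 after hyphal fragments, beside 23.9, 3.19 and 17.9 in saline (−4.29, SE 0.61, limma adjusted p = 0.00252). All conidia libraries lay above all hyphae libraries, which in turn lay above saline. Saa1, a serum amyloid made mainly in liver, stood at 62.6, 7.02 and 44.3 FPKM after conidia and 0.83, 0.91 and 2.42 after hyphal fragments (−3.64, SE 0.76). Orm1 and Orm2, orosomucoids that bind drugs and lipids in plasma, differed by −4.18 and −4.51. For Orm2 the values were 45.7, 19.3 and 29.7 FPKM after conidia, 0.33, 0.25 and 0.49 after hyphal fragments and 1.67, 0.19 and 2.75 in saline. How reads shared by such near-identical pairs were counted is not stated in the labels or files used here, so the split between Saa1 and Saa2 and between Orm1 and Orm2 is uncertain. Reg3g, a lectin that kills bacteria and is made by airway epithelium, stood at 139.6, 382 and 286 FPKM after conidia and 40.5, 6.65 and 65.8 after hyphal fragments (−3.17, SE 0.82), and lost its call without conidia replicate 2 or 3 (adjusted p up to 0.0967 without conidia replicate 2). Lcn2, the siderophore-binding lipocalin, differed in the same direction but was not called, with 9457, 1197 and 5786 FPKM after conidia and 723, 2293 and 2356 after hyphal fragments and overlapping groups (−1.36, adjusted p = 0.215).

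Il1rn, the antagonist of the interleukin 1 receptor, stood at 149, 23.4 and 47.4 FPKM after conidia, 2.47, 7.45 and 8.93 after hyphal fragments and 2.07, 1.85 and 2.73 in saline (−3.08, SE 0.71, limma adjusted p = 0.0126). Timp1, an inhibitor of matrix metalloproteinases, stood at 281, 98.7 and 120.4 FPKM after conidia and 16.2, 16.1 and 21.8 after hyphal fragments, with 19.9, 11.9 and 11.6 in saline (−3.0, SE 0.38). For both genes all conidia libraries lay above saline, and the hyphae libraries overlapped with saline. Pigr, the receptor that carries IgA across epithelium, stood at 127, 63.2 and 81.2 FPKM after conidia and 19, 7.76 and 6.59 after hyphal fragments (−3.0, SE 0.42), below saline at 51.7, 24.9 and 30. Ly6i, a member of the Ly6 surface protein family, differed by −3.08, and how reads shared with close family members were counted is not stated in the labels or files used here. Of 11 interleukin 1 family receptors and antagonists tested, 0 were called higher and 5 lower as deposited, and 0 and 4 after rescaling, beside 38.6% and 22.8% of all tested genes called lower, so the deposited share was near that of all genes. Il18bp, which neutralises interleukin 18, was lower, with a log2 difference of −1.11 and Sigirr, an inhibitory receptor, by −1.04. Among 16 matrix remodelling genes 3 were called higher and 3 lower as deposited, and 5 and 3 after rescaling, beside 50.2% and 45.6% of all tested genes called in either direction. Adamts1, a secreted protease that cleaves proteoglycans, was higher at 78.9, 100.5 and 112 FPKM after hyphal fragments and 22.7, 20 and 13.5 after conidia (2.33, SE 0.21). Spp1, osteopontin, was lower, with a log2 difference of −1.53 and Mmp3, stromelysin, by −1.41.

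Monocyte genes were among the lower ones. Of 15 markers of monocytes and recruited macrophages tested, 0 were called higher and 9 lower as deposited, and 0 and 8 after rescaling, beside 38.6% and 22.8% of all tested genes called lower, with a median of −1.0 as deposited and −0.70 rescaled. Ccr2, the chemokine receptor by which monocytes leave the bone marrow, stood at 12.2, 19.6 and 29.5 FPKM after conidia and 1.01, 1.32 and 1.14 after hyphal fragments, with 10.9, 17.3 and 9.14 in saline (−3.23, SE 0.29, limma adjusted p = 0.000727). Each hyphae library lay below every conidia and saline library. Ms4a4c, a membrane protein of monocytes, differed by −2.12 and F10, coagulation factor X, by −2.04. The summed FPKM of the 15 markers was 469 to 949.7 after conidia, 317 to 510 after hyphal fragments and 263 to 325 in saline. Whether this marker level contributed to the lower values of Il1rn, Arg1 and other genes of myeloid cells was not tested. Arg1, arginase 1, stood at 12.9, 2.47 and 7 FPKM after conidia and 0.97, 1.54 and 1.03 after hyphal fragments (−1.75, adjusted p up to 0.0736 without conidia replicate 3). Nos2, the inducible nitric oxide synthase, was lower, with a log2 difference of −1.68 and Acod1, the itaconate-making enzyme, overlapped between groups at 97.5, 20 and 33.8 FPKM after conidia and 2.14, 12.3 and 37.3 after hyphal fragments (adjusted p = 0.157).

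Genes of fungal recognition, which include receptors, signalling adaptors and soluble proteins, were tested as a list of 23. Of these 1 was called higher and 6 lower as deposited, and 2 and 5 after rescaling, beside 38.6% and 22.8% of all tested genes called lower. The share called lower was thus below that of all genes as deposited and near it rescaled. The median was −0.58 as deposited and −0.26 rescaled. Clec1a, a C-type lectin of endothelium and myeloid cells that binds melanin of conidia, stood at 36.4, 31.6 and 34.3 FPKM after conidia and 6.51, 5 and 4.68 after hyphal fragments, with 17.4, 20.9 and 27.5 in saline (−2.46, SE 0.13, limma adjusted p = 0.00043). Clec4n, dectin-2, which binds fungal mannan, stood at 24.1, 14.7 and 16.2 FPKM after conidia and 1.97, 4.7 and 2.89 after hyphal fragments, with 3.84, 4.16 and 4.96 in saline (−2.23, SE 0.28). The hyphae libraries of both genes lay below the conidia libraries. Msr1, a scavenger receptor of macrophages, was lower, with a log2 difference of −1.75, and Marco, another, by −1.33 (adjusted p up to 0.0663 without conidia replicate 3, and 0.0758 rescaled). Clec7a, dectin-1, the receptor for beta-glucan, stood at 26.8, 30.6 and 15.5 FPKM after conidia and 3.65, 11.5 and 14.6 after hyphal fragments (−1.33, adjusted p = 0.0563), and Clec4e, the receptor Mincle, at 59.7, 14.5 and 27 and 3.71, 10.9 and 22.1 (adjusted p = 0.123). Tlr2 stood at 36.6, 11.6 and 15.2 and 14.4, 45.2 and 63.2 FPKM with overlapping groups (adjusted p = 0.281).

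Many interferon-stimulated genes were lower after hyphal fragments. Of 18 genes of the type I response tested, 0 were called higher and 13 lower as deposited, and 0 and 11 after rescaling, beside 38.6% and 22.8% of all tested genes, with a median of −1.28 as deposited and −0.99 rescaled. Between 12 and 14 were called lower when each library was left out. Oasl2, an antiviral protein of the oligoadenylate synthetase family, stood at 43.5, 54.8 and 62.7 FPKM after conidia and 7.81, 9.33 and 11.3 after hyphal fragments (−2.38, SE 0.18, limma adjusted p = 0.000564), with 33, 36.7 and 33.1 in saline. All hyphae libraries lay below all conidia libraries. Zbp1, a sensor of Z-form nucleic acid, differed by −1.90 and Oas2 by −1.83. Not every member was called. Ifit1 stood at 15.2, 15.9 and 18.3 FPKM after conidia and 7.62, 14 and 28.5 after hyphal fragments, with overlapping groups (−0.16 as deposited and 0.15 rescaled, adjusted p = 0.774 and 0.801). Of 17 genes of the interferon-gamma response, 1 was called higher and 9 lower as deposited, and 1 and 4 after rescaling, beside 38.6% and 22.8% of all tested genes called lower. The rescaled share was thus near that of all genes, and the deposited count called lower was 5 without hyphae replicate 2. Irgm2, a GTPase that guards vacuoles, stood at 17.6, 18.5 and 16.7 FPKM after conidia and 2.58, 3.28 and 2.9 after hyphal fragments (−2.25, SE 0.12). Cxcl9 and Cxcl10, chemokines for T cells, were not called (adjusted p = 0.566 and 0.214), with Cxcl10 at 29.6, 40.1 and 27.8 FPKM after conidia and 30.1, 49.3 and 171 after hyphal fragments.

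Genes that draw in neutrophils were tested as a list of 12 chemoattractants, growth factors and receptors. Of these 1 was called higher and 2 lower as deposited, and 2 and 2 after rescaling, beside 50.2% and 45.6% of all tested genes called in either direction. Cxcl1, a ligand of the receptor Cxcr2, stood at 107, 10.2 and 24.2 FPKM after conidia and 97.5, 178 and 420 after hyphal fragments (2.64, SE 0.89, limma adjusted p = 0.0463). The groups overlapped, and the call was lost in 5 of the 6 sets that left out a library (adjusted p up to 0.168 without conidia replicate 2). Cxcl2, another Cxcr2 ligand, ranged more widely, at 486, 23.2 and 134 FPKM after conidia and 150.3, 654 and 1648 after hyphal fragments (2.23, SE 1.26, adjusted p = 0.181). Csf3, granulocyte colony-stimulating factor, stood at 35, 1.87 and 6.24 FPKM after conidia and 14.6, 44.8 and 80.4 after hyphal fragments (adjusted p = 0.123), and Cxcl5, an epithelial chemokine, at 27.7, 10.3 and 7.91 FPKM after conidia and 4.2, 10.4 and 5.73 after hyphal fragments (adjusted p = 0.144). Csf3r and Cxcr1, receptors on the neutrophil, were lower. Csf3r, the receptor of granulocyte colony-stimulating factor, stood at 103, 88.5 and 108 FPKM after conidia and 12, 25.9 and 44.1 after hyphal fragments (−2.0, SE 0.42), and Cxcr1 at 1.99, 2.14 and 2.62 and 0.11, 0.02 and 0.23 (−1.54, SE 0.14).

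Of 16 markers of mature neutrophils tested, 0 were called higher and 4 lower as deposited, and 0 and 3 after rescaling, beside 38.6% and 22.8% of all tested genes called lower, and the count called lower was 2 without conidia replicate 3 or hyphae replicate 2. S100a8, a subunit of the antimicrobial complex calprotectin, stood at 1144, 271 and 862 FPKM after conidia and 203, 558 and 1918 after hyphal fragments, and S100a9, its partner, at 1499.5, 359 and 848 and 236, 686 and 2073 (adjusted p = 0.938 and 0.901). The summed FPKM of the list was 982 to 3436 after conidia, 699.9 to 5476 after hyphal fragments and 145 to 205 in saline, so that the fungal groups overlapped. Camp, the cathelicidin of granules made late in the bone marrow, stood at 1.44, 1.83 and 2.4 FPKM after conidia and 7.39, 35.3 and 206 after hyphal fragments (3.80, SE 1.05, limma adjusted p = 0.0243). It lost its call without any of the conidia libraries or hyphae replicate 2 (adjusted p up to 0.101 without conidia replicate 2). Ngp, another granule protein, stood at 45.1, 4.72 and 42.8 FPKM after conidia and 40.8, 181 and 639 after hyphal fragments and did not pass (adjusted p = 0.0808). Of 5 immature neutrophil granule markers tested, 1 was called higher and 0 lower on each scale. Their median was −0.25 as deposited and 0.07 rescaled, so the list as a whole was not higher as deposited. All tested genes were called in either direction at 50.2% and 45.6%.

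**Figure D3:**
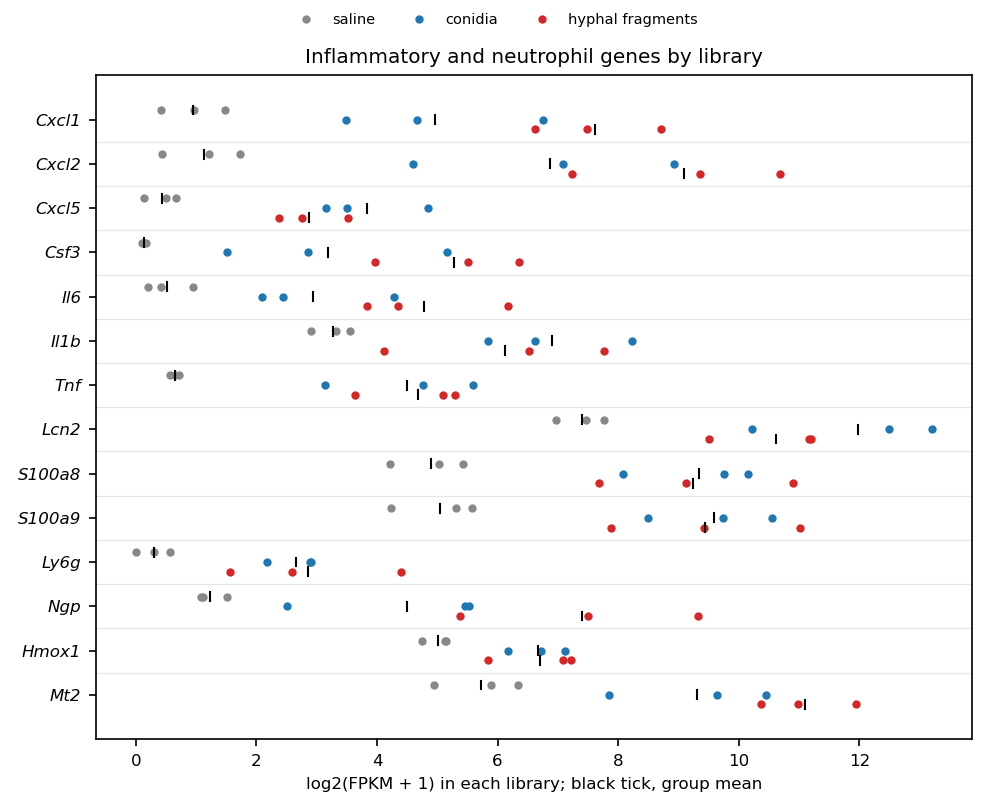
Rows are genes of neutrophil recruitment, cytokines, granule and stress proteins, and the x axis gives log2(FPKM + 1) in each library, with saline in grey, conidia in blue, hyphal fragments in red and a black tick at each group mean. Blue and red points overlap in every row, and all fungal libraries lie to the right of the grey points.

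Cytokines differed member by member. Of 17 tested, 3 were called higher and 2 lower as deposited, and 3 and 1 after rescaling, beside 50.2% and 45.6% of all tested genes called in either direction, and the count called higher was 1 without conidia replicate 2, conidia replicate 3 or hyphae replicate 2. Il1b stood at 298, 56.5 and 97.1 FPKM after conidia and 16.2, 90.7 and 216 after hyphal fragments, Tnf at 47.5, 7.84 and 26.1 and 11.4, 33.3 and 38.4, and Il6 at 18.5, 3.27 and 4.42 and 13.2, 19.3 and 71.2. None of these was called (adjusted p = 0.554, 0.854 and 0.0883), and the groups overlapped. Il33, an alarmin held in the nuclei of epithelial cells, was lower at 32.4, 20.6 and 17.6 FPKM after hyphal fragments and 68.2, 43.4 and 66.7 after conidia (−1.32, SE 0.26). Areg, amphiregulin, a ligand of the EGF receptor made in wound repair, was higher at 8.33, 10 and 12.6 FPKM after hyphal fragments and 6.47, 4.2 and 4.23 after conidia (0.93, SE 0.20). Il17c, an epithelial cytokine of the interleukin 17 family, stood at 0.74, 0.17 and 0.51 FPKM after conidia and 2.27, 2.26 and 3.28 after hyphal fragments (1.30, SE 0.20). Il17a, the founding interleukin 17, was too low to be tested, at 1.56, 0.59 and 0.14 FPKM after conidia and 0.09, 0.27 and 4.74 after hyphal fragments. Ccl11, eotaxin, was higher, with a log2 difference of 1.67, and Cxcl12, a retention signal for leukocytes and stem cells, was lower, with −1.20. These were the only members called among 20 monocyte and lymphocyte chemokines as deposited, beside 50.2% of all tested genes called in either direction.

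Targets of p53 were among the higher genes after hyphal fragments. Of 15 p53 target genes tested, 9 were called higher and 1 lower as deposited, and 11 and 1 after rescaling, beside 11.6% and 22.8% of all tested genes called higher, with a median of 1.12 as deposited and 1.44 rescaled. Cdkn1a (Entrez 12575), the cell cycle inhibitor p21, stood at 228, 74.8 and 177 FPKM after conidia and 679.7, 776 and 713 after hyphal fragments, beside 44.5, 40.4 and 42.9 in saline (2.31, SE 0.39, limma adjusted p = 0.0041). The hyphae libraries lay close together and above all others. Sesn1, a stress protein that restrains mTOR, stood at 15.5, 19.5 and 18.1 FPKM after conidia and 95.3, 149 and 92.7 after hyphal fragments (2.57, SE 0.20), with 20.7, 17.6 and 20.2 in saline. Gdf15, a stress cytokine that acts on the brainstem to curb appetite, stood at 7.19, 4.92 and 5.86 FPKM after conidia and 21.6, 124 and 179 after hyphal fragments (3.52, SE 0.73), and its adjusted p rose to 0.0539 without conidia replicate 2. Of 14 cell cycle and mitosis genes tested, 2 were called higher and 3 lower as deposited, and 4 and 0 after rescaling. All tested genes were called in either direction at 50.2% and 45.6%. Mki67 and Birc5, genes of dividing cells, were the members called higher as deposited. Birc5 kept its call without each library in turn, and Mki67 lost it in 5 of these sets.

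The clock list held 17 tested genes, of which 8 were called higher and 2 lower as deposited, and 9 and 1 after rescaling, beside 11.6% and 22.8% of all tested genes called higher. Per1, a repressor of the clock that also responds to glucocorticoids, stood at 58.8, 41.4 and 50.9 FPKM after conidia and 247, 273 and 237 after hyphal fragments, with 42.8, 15.6 and 52.1 in saline (2.31, SE 0.15, limma adjusted p = 0.000555). Cry2, another repressor, stood at 18.5, 18.1 and 18.6 FPKM after conidia and 81.8, 84.6 and 69 after hyphal fragments (2.03, SE 0.11). Nfil3, a basic leucine zipper factor that opposes Dbp, stood at 17.1, 5.3 and 9.18 FPKM after conidia and 67.4, 75.8 and 98.9 after hyphal fragments (2.94, SE 0.37). For Cry2 the conidia libraries lay in a narrow band near saline, at 22.4, 16.9 and 22.4, and the hyphae libraries lay well above it. Dbp, an output factor of the clock, was not called, at 34.5, 108 and 46.9 FPKM after conidia and 43.4, 25.7 and 33.9 after hyphal fragments (adjusted p = 0.19). The time of day of collection is not stated in the labels or files used here.

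Of 14 glucocorticoid-responsive genes tested, 8 were called higher and 2 lower as deposited, and 9 and 1 after rescaling, beside 11.6% and 22.8% of all tested genes called higher, with a median of 1.39 as deposited and 1.72 rescaled. The count called higher was 5 without conidia replicate 2, hyphae replicate 2 or hyphae replicate 3. The list shares Per1, Cdkn1a, Dusp1, Klf9, Mt1 and Mt2 with other lists, so its count is not separate from theirs. Errfi1, a feedback inhibitor of the EGF receptor, stood at 157, 77.1 and 89.9 FPKM after conidia and 279, 467 and 478 after hyphal fragments (1.94, SE 0.32), and Sgk1, a kinase that raises sodium uptake, at 99.2, 41.4 and 74.6 FPKM after conidia and 303, 205 and 202 after hyphal fragments (1.77, SE 0.33). Mt1, a metallothionein that binds zinc, was called at 1225, 279 and 927 FPKM after conidia and 1535, 2085 and 3661 after hyphal fragments (1.73) and lost the call in 5 of the 6 sets without a library (adjusted p up to 0.12 without hyphae replicate 3), while Mt2 did not pass (adjusted p = 0.0737). Among 14 C/EBP and Kruppel-like factors 9 were called higher and 2 lower as deposited, and 9 and 1 after rescaling, beside 11.6% and 22.8% of all tested genes called higher. Klf6, a factor induced by injury, stood at 85.3, 62.1 and 76.7 FPKM after conidia, 255, 349.6 and 389 after hyphal fragments and 55.5, 59.5 and 64.4 in saline (2.12, SE 0.19). Klf4, which holds epithelium and endothelium quiescent, stood at 69.4, 61.8 and 73.2 FPKM after conidia and 255, 237 and 188 after hyphal fragments (1.71). Cebpg, a partner of other C/EBP factors, was lower, with a log2 difference of −1.82 (SE 0.12).

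Stress proteins split by member. Of 15 heat shock proteins tested, 6 were called higher and 3 lower as deposited, and 6 and 2 after rescaling, beside 11.6% and 22.8% of all tested genes called higher. Dnajb4, a cochaperone, stood at 21.5, 21.7 and 20.1 FPKM after conidia and 72.9, 80.4 and 106 after hyphal fragments (1.97, SE 0.15), and Hspb1, a small heat shock protein, at 194, 117 and 233 FPKM after conidia and 525, 574 and 842 after hyphal fragments (1.85). Hspa1a, the inducible chaperone Hsp70, was lower at 2.74, 2.94 and 3.14 FPKM after hyphal fragments and 4.76, 5.96 and 5.63 after conidia (−0.71), and shares nearly identical sequence with Hspa1b. Of 16 NRF2 and antioxidant genes tested, 3 were called higher and 2 lower as deposited, and 3 and 0 after rescaling, beside 11.6% and 22.8% of all tested genes called higher. The count called lower was 0 without conidia replicate 3, hyphae replicate 2 or hyphae replicate 3 and reached 8 without hyphae replicate 1. The synthesis enzyme of glutathione, Gclc, stood at 194, 134 and 168 FPKM after conidia and 407, 435 and 433 after hyphal fragments (1.37, SE 0.15) and Txnrd1, thioredoxin reductase, at 54.2, 31.8 and 40.3 FPKM after conidia and 102, 160.3 and 169.7 after hyphal fragments (1.75). Cat, catalase, was lower as deposited (−0.63, adjusted p = 0.0406) and not rescaled (0.169). Hmox1, haem oxygenase, was not called (139, 71.1 and 105 FPKM after conidia and 56.1, 148 and 134 after hyphal fragments, adjusted p = 0.948). Gdnf, a neurotrophic factor, stood at 4.47, 2.58 and 2.92 FPKM after conidia and 42.3, 59 and 53.8 after hyphal fragments, with 2.62, 3.66 and 3.62 in saline (3.62, SE 0.20). Apol8, of the apolipoprotein L family, and Necab2, a calcium-binding protein of neurons, differed by 3.69 and 3.46, and Muc13, a membrane mucin, stood at 0.58, 0.21 and 0.36 FPKM after conidia and 9.3, 9.42 and 14.9 after hyphal fragments (3.12).

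Genes of cell death and metabolism gave smaller groups of calls. Of 11 inflammasome and cell death genes tested, 0 were called higher and 4 lower as deposited, and 1 and 4 after rescaling, beside 38.6% and 22.8% of all tested genes called lower, so the deposited share was near that of all genes. Gsdmd, gasdermin D, the pore-former of pyroptosis, stood at 28.1, 29.2 and 33.3 FPKM after conidia and 11.2, 11.8 and 12.6 after hyphal fragments (−1.27, SE 0.11, limma adjusted p = 0.000656). Pycard, the adaptor ASC, differed by −1.02, Mlkl, the executioner of necroptosis, by −0.95 and Casp8, the initiator caspase, by −0.82. For Gsdmd the hyphae libraries lay below every saline library too, at 26, 28.3 and 24.8. In the BCL2 family Pmaip1, the p53-induced killer Noxa, was higher, with a log2 difference of 1.15, and Bad and Bid were lower, with −1.25 and −0.72.

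Of 17 lipid and sterol synthesis genes tested, 1 was called higher and 8 lower as deposited, and 3 and 3 after rescaling, beside 38.6% and 22.8% of all tested genes called lower. These shares were near those of all genes, and the deposited count called lower was 4 without conidia replicate 2 or hyphae replicate 2 and 5 without conidia replicate 1 or hyphae replicate 3. Hmgcs1, which makes the precursor of mevalonate, stood at 29.1, 29.6 and 26.9 FPKM after conidia and 12.3, 11.2 and 12.4 after hyphal fragments, with 33.6, 44.9 and 31.1 in saline (−1.19, SE 0.10, limma adjusted p = 0.000639). Idi1 and Fdps, further along the same route, differed by −0.96 and −0.87. Of 20 glycolysis and hypoxia genes 4 were called higher and 6 lower as deposited, and 4 and 2 after rescaling, beside 50.2% and 45.6% of all tested genes called in either direction, and without hyphae replicate 2 the counts as deposited were 1 higher and 3 lower. Hk2, the inducible hexokinase, stood at 9.1, 5.22 and 6.34 FPKM after conidia and 22.2, 27.5 and 37.4 after hyphal fragments (1.93, SE 0.24). The amino acid transporters Slc38a4 and Slc7a6 were higher, with 1.55 and 1.28.

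Of 13 prostaglandin and leukotriene genes tested, 2 were called higher and 3 lower as deposited, and 3 and 1 after rescaling, beside 50.2% and 45.6% of all tested genes called in either direction. Without conidia replicate 3 or hyphae replicate 2 the deposited counts were 1 higher and 1 lower, and without hyphae replicate 3 the count called lower was 1. Ptgds, which makes prostaglandin D2, stood at 0.33, 0.54 and 0.5 FPKM after conidia and 3.34, 1.81 and 3.05 after hyphal fragments (1.34, SE 0.19). Hpgd, which breaks prostaglandins down, was at 528, 369.9 and 726 FPKM after conidia and 200, 224 and 166 after hyphal fragments (−1.41, SE 0.25). Pla2g4a, the phospholipase that frees arachidonic acid, differed by −0.96 (adjusted p = 0.0263, and 0.0556 rescaled). Ptgs2, the inducible cyclooxygenase, differed by 1.61 (adjusted p = 0.024, up to 0.0913 without conidia replicate 2). Ppp1r15a, the phosphatase subunit GADD34 that ends the integrated stress response, stood at 50.8, 31.8 and 42.6 FPKM after conidia and 99, 155 and 244 after hyphal fragments (1.89, SE 0.33), while Chac1, a target of ATF4, was lower, with −1.12. Bmp2, a growth factor of the vessel wall and epithelium, differed by 1.10 and Lama5, a laminin chain of basement membranes, by 0.92.

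**Figure D4:**
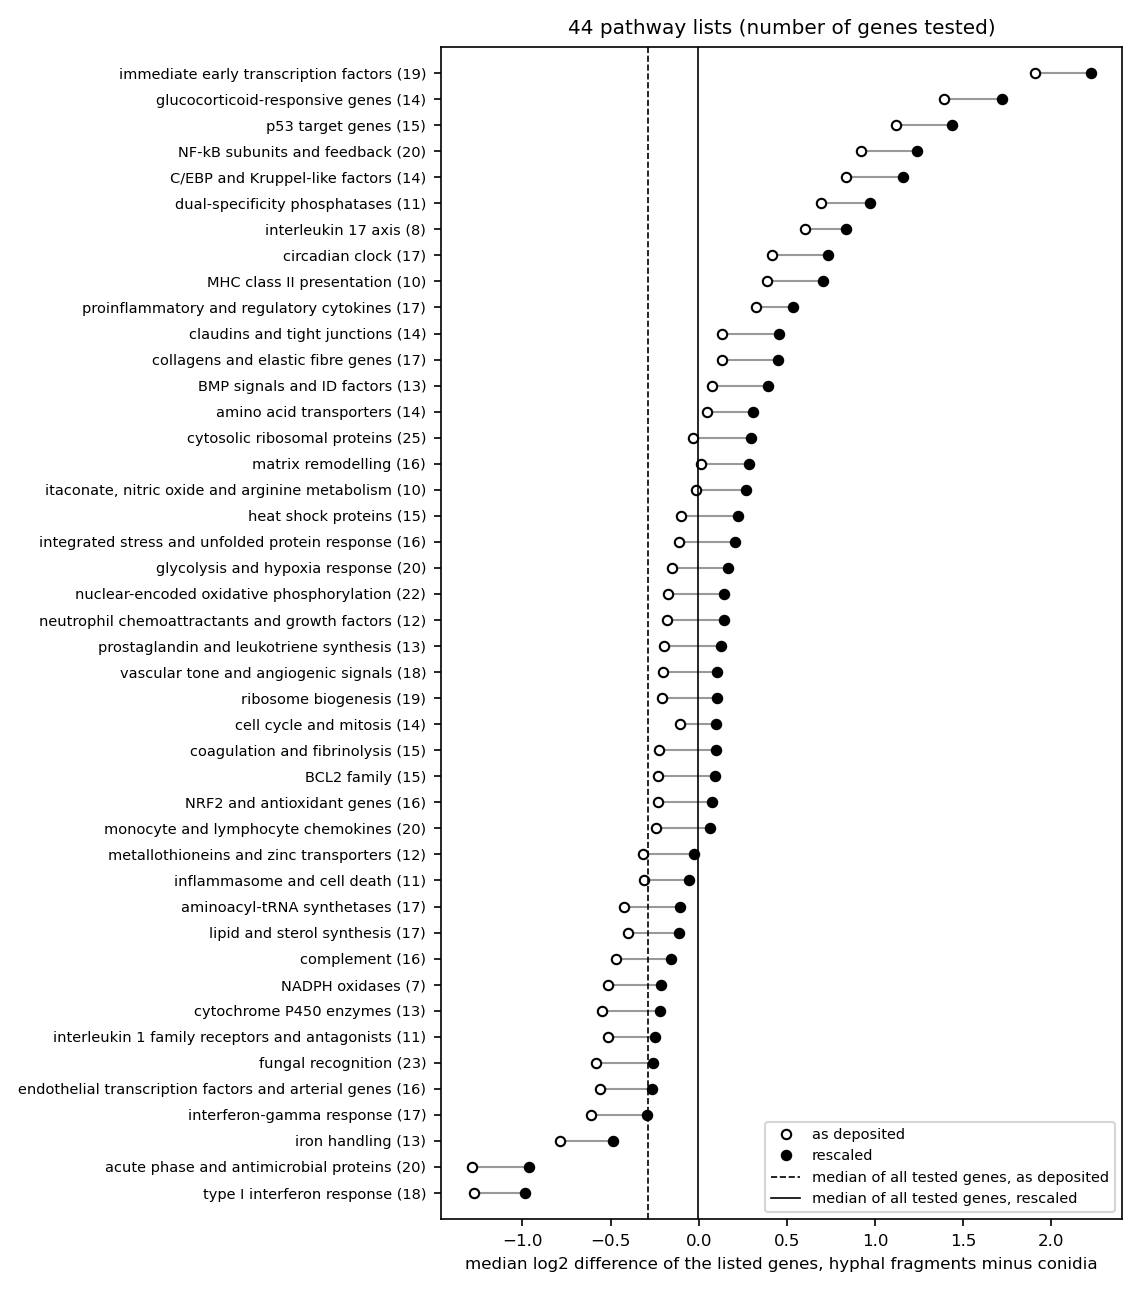
Each row is 1 of 44 pathway lists with its number of tested genes, and the x axis gives the median log2 difference of the listed genes, open circles as deposited and filled circles rescaled. Vertical lines mark the median of all tested genes, dashed at −0.29 as deposited and solid at −0.00 rescaled, and after rescaling immediate early transcription factors stand highest and type I interferon genes lowest.

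Epithelial genes showed member by member differences within cell types. Of 13 alveolar type 2 markers tested, 1 was called higher and 4 lower as deposited, and 4 and 3 after rescaling, beside 38.6% and 22.8% of all tested genes called lower. Slc34a2, a phosphate transporter of these cells, stood at 521, 473 and 442 FPKM after conidia and 90.4, 86.1 and 64.6 after hyphal fragments, with 251, 467 and 420.4 in saline (−2.57, SE 0.15, limma adjusted p = 0.0005). Nkx2-1, the master regulator of lung epithelium, stood at 100.2, 135 and 140 FPKM after conidia and 55, 34.8 and 29.2 after hyphal fragments (−1.67, SE 0.25). Sftpc stood at 10141, 20700.1 and 11738 FPKM after conidia and 24610.4, 21038 and 22379 after hyphal fragments, a difference of 0.74 that did not pass as deposited (adjusted p = 0.0545) and passed after rescaling (1.07, adjusted p = 0.0104). The summed FPKM of the type 2 markers was 17080.4 to 27767 after conidia and 27806 to 32072 after hyphal fragments. For alveolar type 1 cells, Rtkn2 was lower, with a log2 difference of −1.45 and Gprc5a, a receptor-like suppressor of growth, higher by 0.80, while Ager, the receptor RAGE, stood at 1564, 1543 and 1606 FPKM after conidia and 1722, 1587 and 1480.4 after hyphal fragments. Cldn4, a claudin induced in injured alveoli, stood at 9.7, 15.9 and 11.6 FPKM after conidia, 42.6, 60 and 71.7 after hyphal fragments and 15.7, 5.58 and 16.6 in saline (2.14, SE 0.23).

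Airway marker lists had low medians. The median was −1.07 as deposited and −0.74 rescaled for club and goblet cells, and −1.0 and −0.69 for ciliated cells. Of 12 club and goblet cell markers tested, 1 was called higher and 6 lower as deposited, and 3 and 4 after rescaling. This stands beside 38.6% and 22.8% of all tested genes called lower, and the deposited count called lower was 2 without conidia replicate 2 or 3. Muc5b, the main airway mucin, stood at 22.8, 31.4 and 28.5 FPKM after conidia and 9.81, 4.6 and 6.79 after hyphal fragments (−1.86, SE 0.25). Scgb1a1, the chief secretoglobin of club cells, stood at 45216, 40998 and 60182 FPKM after conidia and 33464, 32701 and 27860.4 after hyphal fragments (−0.62), a call lost after rescaling (adjusted p = 0.238) and in 5 of the 6 sets without a library. Cbr2, a carbonyl reductase of club cells, overlapped as deposited and was higher after rescaling (0.82, adjusted p = 0.0221). Of 15 ciliated cell markers, 0 were called higher and 6 lower as deposited, and 0 and 5 after rescaling, beside 38.6% and 22.8% of all tested genes called lower. Their count called lower was 2 without conidia replicate 2, conidia replicate 3 or hyphae replicate 3, 3 without hyphae replicate 2 and 14 without hyphae replicate 1. Foxj1, the factor of motile cilia, stood at 47.7, 81.1 and 61.2 FPKM after conidia and 41, 13.8 and 12.9 after hyphal fragments. Hyphae replicate 1 lay nearest the conidia libraries for Foxj1. Summed FPKM was 340.2 to 647 after conidia and 307 to 489.7 after hyphal fragments for ciliated markers and 50013 to 66497 and 33207 to 41881 for club and goblet markers.

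Of 10 platelet markers tested, 6 were called higher and 0 lower as deposited, and 9 and 0 after rescaling, beside 11.6% and 22.8% of all tested genes called higher. As deposited, 4 were called higher without conidia replicate 1 or 3, and 2 with the replicate number as a block in the fit. Itga2b, the fibrinogen receptor subunit, stood at 3.65, 5.58 and 5.14 FPKM after conidia and 13.1, 8.53 and 8.37 after hyphal fragments (0.91, SE 0.21). Among 15 coagulation and fibrinolysis genes 3 were called higher and 5 lower as deposited, and 3 and 5 after rescaling, beside 50.2% and 45.6% of all tested genes called in either direction, and the count called higher was 1 without conidia replicate 3 or hyphae replicate 2. Plat, tissue plasminogen activator, which dissolves clots, was higher at 79.1, 95.8 and 57 FPKM after hyphal fragments and 29.6, 13.9 and 18.6 after conidia (1.88, SE 0.30). Of 16 complement genes 0 were called higher and 5 lower as deposited, and 0 and 3 after rescaling, beside 38.6% and 22.8% of all tested genes called lower, with Cfb, factor B, lower at 23.5, 21 and 16.8 FPKM after hyphal fragments and 155, 59.3 and 64.1 after conidia (−2.0, SE 0.37), and the count called lower was 3 without hyphae replicate 3. In iron handling Slc40a1, ferroportin, was lower, with a log2 difference of −1.26 and Cp, ceruloplasmin, by −1.94, among 13 genes of which 0 were called higher and 6 lower as deposited, and 0 and 4 after rescaling, beside 38.6% and 22.8% of all tested genes called lower. Among 11 B cell markers 1 was called higher and 3 lower as deposited, and 1 and 2 after rescaling. Among 10 T cell markers 0 were called higher and 1 lower as deposited, and 1 and 1 after rescaling. Among 3 NK cell markers 0 were called higher and 0 lower as deposited, and 0 and 0 after rescaling. These counts stand beside 50.2% and 45.6% of all tested genes called in either direction. For NK cells 0 had an unadjusted p under 0.05 in limma. Il7r, the interleukin 7 receptor, was lower at 0.59, 0.32 and 0.47 FPKM after hyphal fragments and 4.42, 5.3 and 3.56 after conidia (−1.89, SE 0.16), and Cd3e and Cd79a, of the T and B cell receptors, were not called (adjusted p = 0.137 and 0.619). Cd79a was highest in conidia replicate 2 among the conidia libraries, at 7.75, 46.3 and 12.7 FPKM in replicates 1, 2 and 3. Of 11 dendritic cell markers 0 were called higher and 1 lower as deposited, and 0 and 1 after rescaling. These counts also stand beside 50.2% and 45.6% of all tested genes called in either direction. The median of the dendritic cell markers was −0.30 as deposited and −0.08 rescaled. The called member was Clec9a, a receptor of cross-presenting dendritic cells, which stood at 15.1, 14.8 and 18.3 FPKM after conidia and 3.07, 2.49 and 2.83 after hyphal fragments (−2.16, SE 0.13).

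**Figure D5:**
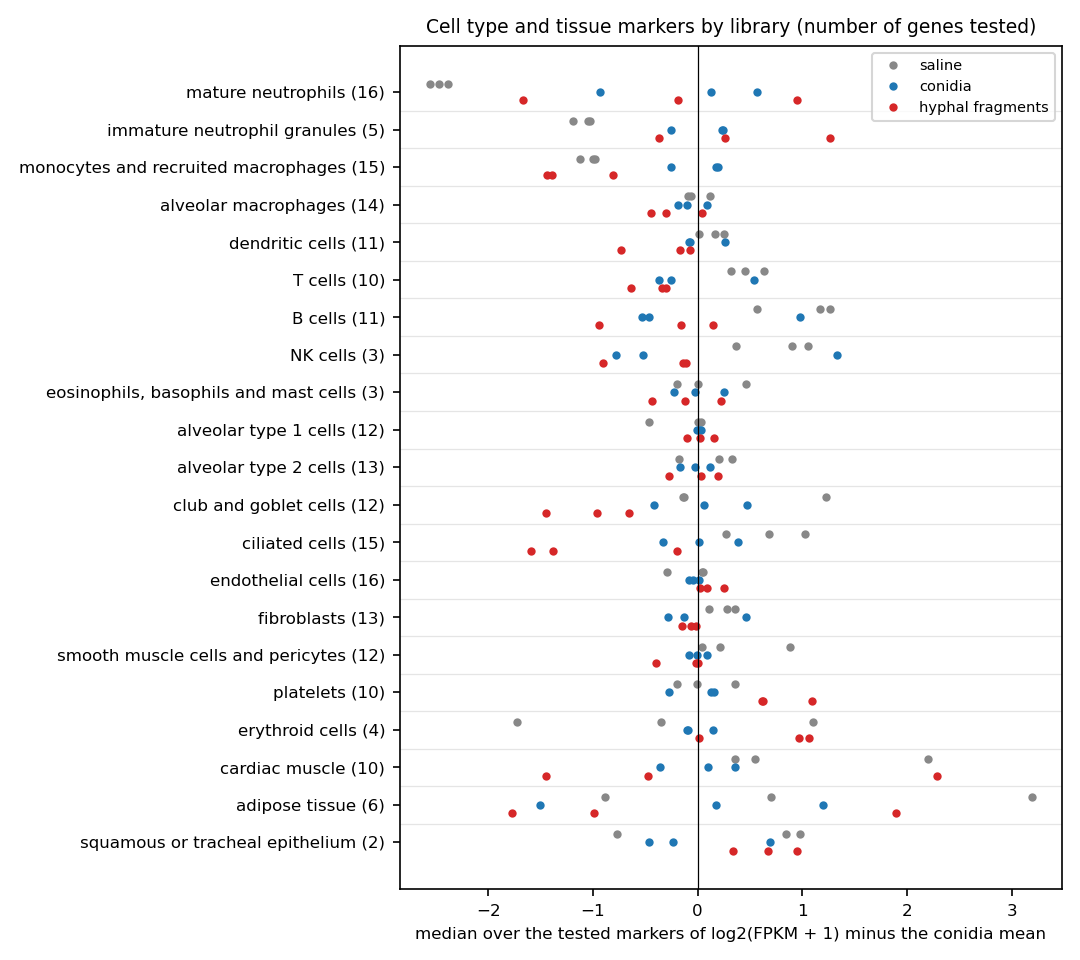
Each row is a list of cell type or tissue markers with its number of tested genes, and the x axis gives, for each library, the median over the markers of log2(FPKM + 1) minus the conidia mean (saline grey, conidia blue, hyphal fragments red). Red points lie to the left of blue for monocytes and recruited macrophages and for club and goblet cells, and to the right for platelets, while cardiac muscle and adipose tissue spread widely within each group.

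Some groups depended on the scale. Of 10 genes of MHC class II presentation 0 were called higher and 1 lower as deposited, and 6 and 0 after rescaling, beside 11.6% and 22.8% of all tested genes called higher. H2-Aa stood at 167, 345 and 157 FPKM after conidia and 293, 484 and 361 after hyphal fragments (0.83, adjusted p = 0.0782; 1.15 rescaled, 0.0319). As deposited, 6 of the class II genes were called higher without conidia replicate 2. Of 25 cytosolic ribosomal proteins 0 were called higher and 0 lower as deposited, and 10 and 0 after rescaling. This stands beside 11.6% and 22.8% of all tested genes called higher. Their medians were −0.03 as deposited and 0.30 rescaled, and 0 had an unadjusted p under 0.05 in limma as deposited. Aminoacyl-tRNA synthetases, which charge tRNAs, were called mostly lower as deposited, and of 17 tested 2 were called higher and 11 lower as deposited, and 2 and 3 after rescaling, beside 38.6% and 22.8% of all tested genes called lower. Iars and Dars were called lower on both scales, with differences of −0.80 and −0.87 as deposited. The count of synthetases called lower was 7 without hyphae replicate 2. Markers of cardiac muscle and adipose tissue, which a dissected lung can carry, had no called member in limma, and 0 of 10 and 0 of 6 tested genes had an unadjusted p under 0.05. Without hyphae replicate 3, 3 cardiac genes were called lower. Their per-library medians relative to the conidia mean were −0.47, −1.45 and 2.29 in hyphae replicates 1, 2 and 3 for cardiac muscle and −0.99, −1.77 and 1.90 for adipose tissue.

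Y-linked genes were detected in all libraries and differed member by member. Ddx3y, an RNA helicase, stood at 21.2, 18.7 and 20.7 FPKM after conidia and 33.2, 35.5 and 31.8 after hyphal fragments, with 15.8, 18.9 and 19.5 in saline (0.70, SE 0.10, limma adjusted p = 0.00198). Uty, a histone demethylase homologue, stood at 5.68, 7.09 and 6.99 FPKM after conidia and 2.36, 1.99 and 1.95 after hyphal fragments (−1.29, SE 0.14).

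A pseudogene stood among the lowest differences. Rbx1-ps, a copy of the ubiquitin ligase subunit Rbx1, was listed at 0 in all 3 hyphae libraries and at 10.9, 18 and 16.9 FPKM after conidia and 14.4, 9.49 and 17.7 in saline. How reads shared with its parent gene were assigned is not stated in the labels or files used here, so its value is uncertain.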

How the data were processed

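Poly(A) RNA of whole mouse lung was sequenced, and 3 libraries per treatment were deposited. The authors deposited FPKM per gene, and the submitters' processing notes name HISAT, Bowtie2 and the build mm9. The program that made the FPKM was not given in the sources used here. The deposited FPKM were changed to log2(FPKM + 1), fitted in limma 3.58.1 (R 4.3.3) with trend and robust empirical Bayes on the 6 fungal libraries, and adjusted over all 13301 tested genes. Rescaled values were FPKM divided by median-of-ratios factors of 1.06, 1.20 and 1.14 (conidia) and 0.966, 0.863 and 0.874 (hyphae). On simulated data the fit recovered 52% of genes changed by 1 and 88% of genes changed by 2 on the log2 scale. Only 200 of 13301 genes were changed there, a far smaller share than was called here. These rates therefore do not describe recovery in this contrast.

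Named were the 12 highest and lowest genes called on both scales without overlap (predicted genes left out), up to 4 called members of each of 66 lists (907 genes, 831 tested) and a set kept whatever its result. The members and lists were chosen with earlier results of these data known. Alternatives were other scalings, pseudocounts and filters, a fit without the robust option, a fit on all 9 libraries, the replicate number as a block, and leaving out each library. Depth was inferred from the steps between the lowest FPKM values, with fragment lengths of 0 to 150 assumed. The saline libraries are given as values beside the fungal ones. Promoter windows came from RefSeq (GRCm38.p6), and transcript lengths and GC content from the annotated transcripts of the reference.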

Additional observations from a re-analysis of the deposited data

How the results depend on the processing

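Of 246 named genes tested, 150 of the 216 called kept call and direction without each of the 6 libraries. Leaving out 1 library gave 4450 (without hyphae replicate 2) to 7236 (without hyphae replicate 1) called genes as deposited, with 994 to 1563 higher and 3456 to 5673 lower, and 3751 (without conidia replicate 3) to 6583 rescaled, with 1870 to 3205 higher and 1851 to 3378 lower. At least 2-fold, the ranges were 1562 to 2461 (350 to 481 higher, 1212 to 1980 lower) as deposited and 1163 to 1897 (605 to 986 and 539 to 911) rescaled. Rescaling turned 1549 higher and 5134 lower into 3027 and 3035, and 406 and 1473 at least 2-fold into 778 and 676. For the named genes it left 205 with the same direction and call status, ended 32 calls, added 5 and turned the sign of 4 uncalled genes. A pseudocount of 0.1 gave 2284 genes lower by at least 2-fold, as low values then count for more. Scaling to TPM gave 6330 called genes, no filter 6954, a filter on the mean 6547, the fit without the robust option 6693 and the fit on all 9 libraries 7462.

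The replicate number as a block gave 5157 called genes (1208 higher, 3949 lower) as deposited and 4611 (2301 and 2310) rescaled. The deviations of same-numbered libraries correlated at −0.32, −0.10 and 0.18, which gave no sign of a pairing by number. So few libraries per group cannot exclude one.

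Signs turned for uncalled genes only, and the cause was not tested. Rescaled, Col1a1 was 0.24, Ifit1 0.15, S100a8 0.23 and S100a9 0.18. Over the sets without 1 library, Ager ran from −0.0355 (without hyphae replicate 1) to 0.0735, Cd79a from −0.94 to 0.28 (without conidia replicate 2), Col1a1 from −0.22 to 0.18, Cxcl9 from −0.61 to 0.15 (without hyphae replicate 1) and Hmox1 from −0.21 to 0.48. Ifit1 ran from −0.62 to 0.27, Il1b from −1.58 to 0.24, Ly6g from −0.58 to 0.83, S100a8 from −0.93 to 0.68 and S100a9 from −0.94 to 0.63, each lowest without hyphae replicate 3 and highest without hyphae replicate 1. Tnf ran from −0.50 (without conidia replicate 2) to 0.72 (without conidia replicate 1).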

Other observations

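Among genes chosen after their values were seen, 3 were listed at 0 FPKM in all conidia libraries and were detected in every hyphae library. Olfr1373, an olfactory receptor, was at 2.16, 2.24 and 1.54 FPKM, Fam24b at 1.2, 1.69 and 1.86, and Tmem247 at 2.03, 1.59 and 1.86. No fold is given against a group listed at 0. In saline Olfr1373 and Tmem247 were listed at 0 and Fam24b was at 0.17, 0.16 and 0.08 FPKM.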
